A study of Homo sapiens with 18 samples.

Results

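The LIM-only proteins LMO1, LMO2, LMO3 and LMO4 and the LIM-domain-binding proteins LDB1 and LDB2 were examined across a parental neuroblastoma line and its entrectinib-resistant derivatives. These 6 genes were chosen by symbol from the 63657 gene identifiers of the deposited table, after earlier results of the same libraries were known. Each symbol matched 1 Ensembl identifier. Those that reached an FPKM of 1 in 3 or more of the 18 libraries were tested, which 5 of the 6 did and LMO2 did not. FPKM is a level scaled for transcript length and library total, so that levels may be compared between genes.

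LIM-only proteins consist of little more than a pair of LIM zinc-binding domains and do not bind DNA themselves. They act as bridges between DNA-binding proteins such as GATA and basic helix-loop-helix (bHLH) factors and the cofactor LDB1, which forms dimers and so can join separate complexes, including distant enhancers and promoters. LIM-homeodomain factors use the same surface of LDB1 and compete with LIM-only proteins for it. Variants in LMO1 are associated with neuroblastoma risk, and LMO1 and LMO3 act as oncogenes in that tumour. LMO2 serves in blood and endothelial cells, and LMO4 in epithelial cells, neurons and neural crest derivatives.

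RNA sequencing covered 6 human lines with 3 libraries each, 18 in all. The parental line, SY5Y_BR6, derives from SH-SY5Y neuroblastoma cells that express the neurotrophin receptor TrkB, which all 6 lines have in common. Resistant lines were named ER5, ER28, ER29, ER42 and ER47, and each came from 1 subcutaneous tumour of SY5Y-TrkB cells in an athymic nu/nu mouse, a host without T cells, that first responded to the Trk, ALK and ROS1 inhibitor entrectinib and then regrew. Oral doses of 60 mg/kg were given every 4 h to the mice behind ER5, ER28 and ER29, and every 6 h to those behind ER42 and ER47. In culture the resistant cells were taken from 10 nM up to 750 nM entrectinib, and the maintained cells, which the labels call clones, were held at 200 nM until harvest. No drug is given for the parental culture, so resistance, drug exposure, mouse passage and culture history cannot be told apart. Each resistant line is a single tumour, and no label tells whether libraries of 1 line were separate cultures, so test results reflect only the spread between these libraries, which may be technical.

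Read from the steps between low values, depth ranged from 1 to 1.95 times that of the shallowest parental library. Of 7 noradrenergic neuroblast markers, 6 passed the filter, and their summed FPKM was 1972 to 2036 in the parental libraries and 1192 to 1865 in the resistant ones. DBH, dopamine beta-hydroxylase, had a parental mean of 812, whereas TH, tyrosine hydroxylase, reached at most 0.581 and was listed at 0 in 3 libraries. None of 10 endothelial and blood markers passed the filter, and PECAM1 was listed at 0 in all 18 libraries. Of 6 fibroblast markers 5 passed, with mean sums of 24.0 in the parental line and 25.7 to 40.8 in the resistant lines, highest in ER28. Its members did not move together. COL1A1, called higher in all 5 lines, went from a mean of 2.76 to 7.78 to 15.9. LUM, called lower in all 5, went from 8.46 to 0.742 to 4.40. Of 6 Schwann cell precursor markers 2 passed, with mean sums of 1.94 in the parental line and 3.36 to 4.77 in the resistant lines, and FOXD3 was listed at 0 in 16 libraries. The part of these markers in the results that follow was not tested, and in bulk samples fewer cells of a type and less RNA per cell cannot be told apart.

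The promoter windows of the 3 LIM-only genes that passed the filter are shown, with the first of the LMO3 starts, so that their base composition and motif content can be read beside the levels. They run from 250 bases before to 50 bases after a RefSeq start on GRCh38.p14, in the direction of the gene, and windows were found for 4 of the 6 genes (1 start for LMO1, 5 for LMO3, 2 for LMO4 and 1 for LDB1). Capitals mark matches, on either strand, to the E-box CANNTG bound by bHLH factors, to GATAA, or to the homeodomain core TAATTA.
LMO1, chr11:8268738-8269037, minus strand: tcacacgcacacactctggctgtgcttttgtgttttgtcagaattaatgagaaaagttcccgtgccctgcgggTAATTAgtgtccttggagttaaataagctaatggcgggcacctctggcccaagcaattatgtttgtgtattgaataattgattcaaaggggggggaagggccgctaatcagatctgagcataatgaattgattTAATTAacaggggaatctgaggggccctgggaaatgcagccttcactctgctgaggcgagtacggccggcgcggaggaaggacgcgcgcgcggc
LMO3 start 1, chr12:16608165-16608464, minus strand: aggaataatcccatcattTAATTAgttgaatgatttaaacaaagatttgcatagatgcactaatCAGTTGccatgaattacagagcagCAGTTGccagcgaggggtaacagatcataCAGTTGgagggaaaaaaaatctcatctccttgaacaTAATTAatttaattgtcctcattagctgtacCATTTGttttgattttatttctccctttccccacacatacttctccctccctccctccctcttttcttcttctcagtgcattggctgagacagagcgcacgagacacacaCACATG
LMO4 start 1, chr1:87328630-87328929, plus strand: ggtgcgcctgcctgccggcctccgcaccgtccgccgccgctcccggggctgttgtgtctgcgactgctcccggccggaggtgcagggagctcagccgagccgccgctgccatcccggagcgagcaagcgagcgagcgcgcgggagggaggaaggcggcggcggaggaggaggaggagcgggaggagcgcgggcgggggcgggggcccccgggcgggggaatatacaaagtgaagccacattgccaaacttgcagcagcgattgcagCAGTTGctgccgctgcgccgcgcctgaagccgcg
LMO4 start 2, chr1:87331494-87331793, plus strand: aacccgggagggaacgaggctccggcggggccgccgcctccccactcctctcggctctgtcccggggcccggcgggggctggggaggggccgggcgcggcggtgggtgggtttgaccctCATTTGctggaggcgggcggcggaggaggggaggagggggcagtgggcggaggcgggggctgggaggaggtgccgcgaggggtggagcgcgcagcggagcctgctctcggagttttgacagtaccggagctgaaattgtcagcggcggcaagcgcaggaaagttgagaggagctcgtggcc

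The LMO1 window held 2 TAATTA matches and no E-box or GATAA. The LMO3 start 1 window held 5 E-boxes and 2 TAATTA matches, while LMO3 starts 2 to 5 held 0, 4, 1 and 0 E-boxes and neither of the other motifs. Each LMO4 window held 1 E-box and neither of the other motifs, as did LMO3 start 4. Among 35116 windows of all genes, 68.7% held an E-box, 22.7% held GATAA, 4.84% held TAATTA, and 1.79% held 5 or more E-boxes. The G+C content was 74.0% and 73.3% in the LMO4 windows, 50.7% in LMO1 and 40.0% in LMO3 start 1. Of all windows, 88.5%, 87.0%, 32.0% and 11.2% had a lower content, in the same order. LMO3 starts 2 to 5 had 46.0%, 48.7%, 46.3% and 52.0%, the last above LMO1. LDB1 had 67.0% and no match to any of the 3 motifs. A match is a description of the letters and not a site at which a factor was shown to bind.

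LMO4 (ENSG00000143013, chromosome 1) was the LIM-only gene with the widest range of levels. The parental libraries stood at 6.46, 4.74 and 5.03 FPKM (5.41 ± 0.920, mean ± SD, n = 3, as for all means below). The ER28 libraries stood at 168, 158 and 172, a mean of 166 ± 6.73 and 30.7 times the parental mean. All 3 lay above every other library in the series.
The ER29 libraries stood at 55.8, 53.4 and 50.6 (53.2 ± 2.60, 9.84 times parental). Those of ER5 stood at 47.8, 45.2 and 49.6 (47.5 ± 2.20, 8.79 times). Those of ER47 stood at 40.2, 39.0 and 45.9 (41.7 ± 3.68, 7.71 times). These 3 lines lay close together, and the libraries of ER47 and ER5, neighbours in the order of means, overlapped.
The ER42 libraries stood at 12.4, 21.4 and 30.0 (21.3 ± 8.79, 3.93 times parental), the widest relative spread of LMO4 within any resistant line. Even the lowest of them was above all 3 parental libraries. The order of means was parental, ER42, ER47, ER5, ER29 and ER28, and ER47 and ER5 were the sole neighbours whose libraries overlapped.

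Differences between lines were taken from 1 limma fit of log2(FPKM + 1) over all 19799 genes that passed the filter. Calls were made where the p-value, adjusted by Benjamini and Hochberg (BH), was under 0.05. The log2 differences ± SE of LMO4 from the parental line were 4.71 in ER28, 3.09 in ER29, 2.93 in ER5, 2.74 in ER47 and 1.72 in ER42, each ± 0.20, and all were called higher. The log2(FPKM + 1) scale understates the change of a gene as low as LMO4 was in the parental line. All 5 comparisons used the same 3 parental libraries. Calls in these data were common, and since the genes were chosen with such values in view, their calls are a description only and nothing is read from their number.

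**Figure D1:**
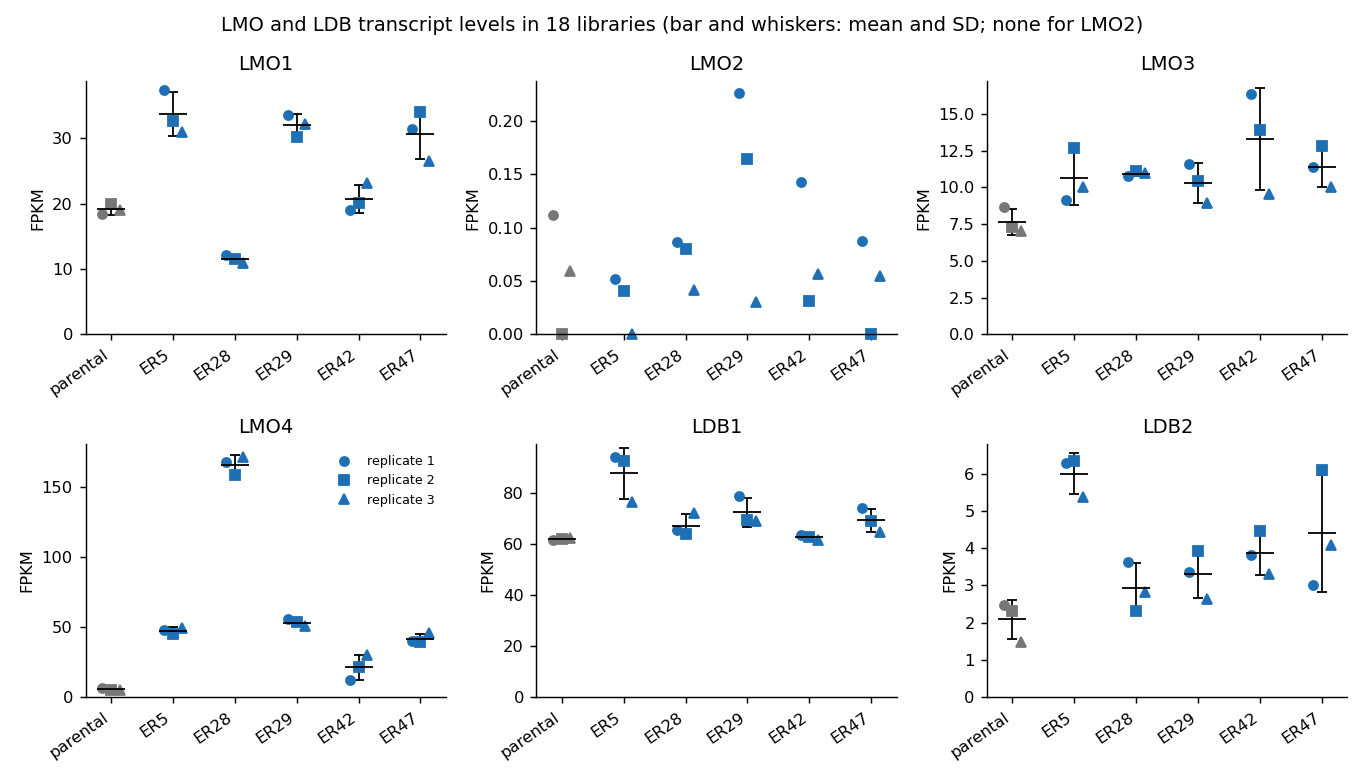
FPKM of each of the 6 genes in each of the 18 libraries (linear axes, 1 panel per gene with its own scale; points are libraries, and bars and whiskers are line means ± SD, left out for LMO2). LMO4 in ER28 stands at 158 to 172 FPKM against 4.74 to 6.46 in the parental line, and LMO2 does not exceed 0.226 in any library.

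LMO1 (ENSG00000166407, chromosome 11), the neuroblastoma oncogene of the family, was the most abundant LIM-only transcript of the parental line and moved in both directions among the resistant lines. The parental libraries stood at 18.4, 20.0 and 19.1 FPKM (19.2 ± 0.823). The ER28 libraries stood at 12.1, 11.5 and 11.0 (11.5 ± 0.566), below every other library and at 0.600 of the parental mean. ER28 therefore held the lowest LMO1 and the highest LMO4 of the 6 lines.
The ER5 libraries stood at 37.5, 32.6 and 31.0 (33.7 ± 3.35, 1.76 times parental). Those of ER29 stood at 33.6, 30.3 and 32.2 (32.0 ± 1.70, 1.67 times). Those of ER47 stood at 31.4, 34.0 and 26.5 (30.7 ± 3.80, 1.60 times). These 3 lines overlapped one another in order and lay above all parental libraries.
The ER42 libraries stood at 19.0, 20.1 and 23.2 (20.8 ± 2.14) and overlapped the parental ones. The log2 differences were 0.78 in ER5, 0.71 in ER29 and 0.64 in ER47, called higher, and -0.69 in ER28, called lower, each with an SE of 0.09. In ER42 the difference of 0.11 ± 0.09 was not called.

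LMO3 (ENSG00000048540, chromosome 12), which binds the neuronal bHLH protein HEN2 (NHLH2) in neuroblastoma cells, had a narrower range. The parental libraries stood at 8.68, 7.32 and 7.01 FPKM (7.67 ± 0.887). The libraries of ER5 stood at 9.17, 12.7 and 10.0, and those of ER28 at 10.8, 11.1 and 11.0. Every library of both lines was above every parental one.
The libraries of ER29 stood at 11.6, 10.4 and 8.92, and those of ER47 at 11.4, 12.8 and 10.1. Those of ER42 stood at 16.4, 13.9 and 9.54 (13.3 ± 3.47, 1.73 times parental), the highest mean and the widest spread. No resistant line overlapped the parental libraries, while the lowest ER42 library lay within the range of ER5.
The log2 differences of LMO3 were 0.42 in ER5, 0.47 in ER28, 0.69 in ER42 and 0.52 in ER47, called higher, and 0.38 in ER29, not called, each with an SE of 0.16. Leaving out 1 library ended the call in ER5 (without parental replicate 2 or 3, or ER5 replicate 2 or 3, 0.29 to 0.45), in ER28 (without parental replicate 2 or 3, or any ER28 library, 0.41 to 0.48) and in ER47 (without parental replicate 3 or ER47 replicate 2, 0.44 to 0.46). The calls in ER5 and ER28 also ended with no filter on low values. A call appeared in ER29 with a filter at FPKM 5, in a fit of the 2 lines alone, or with 1 library less (without parental replicate 1, ER5 replicate 2, ER29 replicate 3, or ER42 replicate 1 or 3, 0.38 to 0.47). On the opposite strand LMO3 is overlapped by MGST1, a microsomal glutathione transferase with a parental mean of 16.6 FPKM and resistant means of 4.06 to 8.88. The strand setting of the counting, not given in the sources used here, makes the LMO3 level uncertain to that extent.

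LMO2 (ENSG00000135363, chromosome 11), the bridge of the TAL1, GATA and LDB1 complex in blood cell precursors, was close to nothing in every line. Its highest library stood at 0.226 FPKM, and it was listed at 0 in parental replicate 2, ER5 replicate 3 and ER47 replicate 2. In replicates 1, 2 and 3 it stood at 0.112, 0 and 0.0595 in the parental line, 0.0514, 0.0410 and 0 in ER5 and 0.0867, 0.0802 and 0.0417 in ER28. It stood at 0.226, 0.164 and 0.0300 in ER29, 0.142, 0.0314 and 0.0569 in ER42 and 0.0872, 0 and 0.0546 in ER47. The libraries of every resistant line overlapped the parental ones, and no fold is given at this level.

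LDB1 (ENSG00000198728, chromosome 10), the dimerising cofactor that LIM-only proteins bind, was the most abundant of the 6 genes in every line but ER28. The parental libraries stood at 61.5, 61.7 and 62.1 FPKM (61.8 ± 0.298). Those of ER5 stood at 93.8, 92.4 and 76.1 (87.5 ± 9.83, 1.42 times parental). All 3 lay above the parental libraries, and ER5 replicate 3 was well below its companions.
The ER29 libraries stood at 78.5, 69.3 and 68.7, those of ER47 at 73.9, 68.7 and 64.7, and those of ER28 at 65.4, 63.6 and 72.2. Each of these lines was above all parental libraries by a small margin. The ER42 libraries stood at 63.4, 62.4 and 61.6 and overlapped the parental ones.
The log2 differences of LDB1 were 0.49 in ER5 and 0.22 in ER29, called higher, and 0.16 in ER47, 0.11 in ER28 and 0.02 in ER42, not called, each with an SE of 0.08. The call in ER29 ended without any 1 parental library or ER29 replicate 1 (0.16 to 0.22), with no filter, and with median-of-ratios scaling, and a call in ER47 appeared without ER5 replicate 3 or in a fit of the 2 lines alone (0.16). Under quantile normalisation LDB1 was also called higher in ER28 (0.26), ER42 (0.20) and ER47 (0.40).

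LDB2 (ENSG00000169744, chromosome 4), the second LIM-domain-binding gene, was far less abundant. The parental libraries stood at 2.47, 2.30 and 1.48 FPKM (2.08 ± 0.530). Those of ER5 stood at 6.29, 6.34 and 5.36 (6.00 ± 0.551, 2.88 times parental). All were above every parental library and the line had the highest mean for LDB2, as it had for LDB1 and LMO1.
The libraries of ER47 stood at 3.02, 6.11 and 4.08, and those of ER42 at 3.82, 4.45 and 3.31. Those of ER29 stood at 3.36, 3.91 and 2.62, and those of ER28 at 3.64, 2.32 and 2.82. ER28 alone overlapped the parental libraries.
The log2 differences of LDB2 were 1.19 in ER5, 0.78 in ER47 and 0.67 in ER42, called higher, and 0.48 in ER29 and 0.35 in ER28, not called, each with an SE of 0.20. The call in ER42 ended without parental replicate 3 (0.52) or ER42 replicate 2 (0.58) and under quantile normalisation (0.48). In ER29 a call appeared with a pseudocount of 0.1 (0.65) and without parental replicate 1 (0.58), ER29 replicate 3 (0.60), or ER47 replicate 1 or 2 (0.48).

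**Figure D2:**
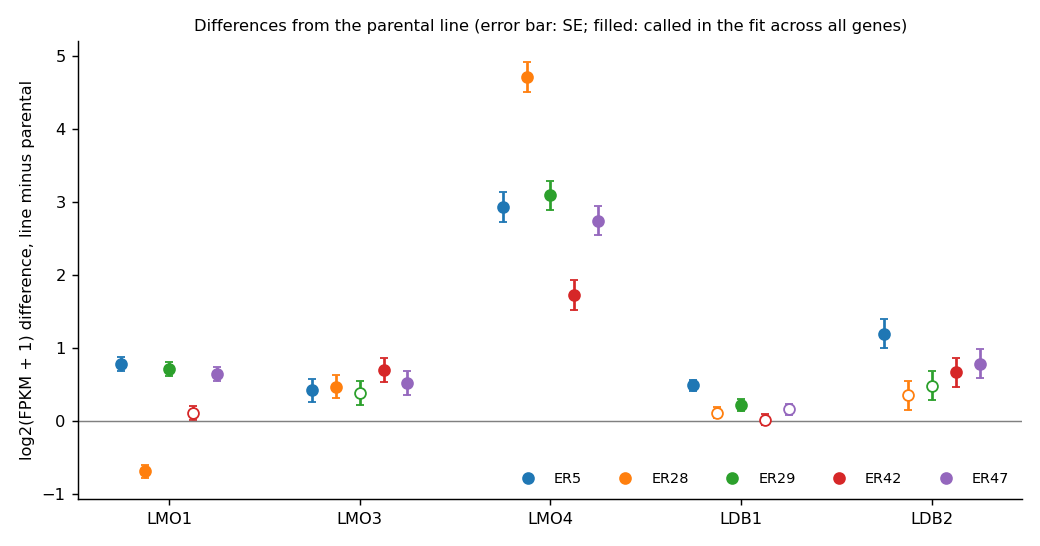
Log2 difference of each tested gene in each resistant line from the parental line, in log2(FPKM + 1), with bars for the SE of the limma fit (filled points were called, open points were not; n = 3 libraries per line). LMO4 lies between 1.72 in ER42 and 4.71 in ER28, and LMO1 is the sole gene with a called negative value, -0.69 in ER28.

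By line, all 5 tested genes were called higher in ER5, where 24.5% of all tested genes were called higher and 27.5% lower. In ER28, 2 were called higher and 1 lower, against 14.6% and 20.9% of all tested genes. In ER29, 3 were called higher and none lower, against 23.1% and 27.1%. In ER42, 3 were called higher and none lower, against 16.9% and 22.8%. In ER47, 4 were called higher and none lower, against 18.8% and 28.1%. LMO4 was the single gene called higher in all 5 lines, as were 5.63% of all tested genes, and none was called lower in all 5, as were 12.3%. The F test among the 5 resistant lines called LMO1, LMO4, LDB1 and LDB2 but not LMO3, and it called 52.3% of all tested genes. The median log2 difference of the 5 genes was 0.78 (ER5), 0.35 (ER28), 0.48 (ER29), 0.67 (ER42) or 0.64 (ER47), while the medians of all tested genes lay between -0.01 and 0.04.

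The make-up of LIM-only transcripts differed between lines, though ER5, ER29 and ER47 had similar shares of each gene. The FPKM of LMO1 to LMO4 summed to 32.3 ± 1.26 in the parental line, 55.4 in ER42, 83.8 in ER47, 91.9 in ER5, 95.7 in ER29 and 188 in ER28. LMO1 held 59.4% of the parental sum, LMO3 23.7% and LMO4 16.7%. In ER28 LMO4 held 88.0%, LMO1 6.11% and LMO3 5.82%. LMO4 held 51.7% in ER5, 55.6% in ER29 and 49.8% in ER47, and LMO1 36.6%, 33.5% and 36.5%.
In ER42 the LMO4 share was 25.9%, 38.5% and 47.8% in replicates 1, 2 and 3. The LMO1 share was 39.7%, 36.2% and 36.9%, and the LMO3 share was 34.1%, 25.2% and 15.2%. LMO4 was thus below both LMO1 and LMO3 in replicate 1 and above both in replicates 2 and 3. The ratio of LMO4 to LMO1 was 0.653, 1.06 and 1.30 in ER42, against a mean of 0.284 in the parental line and 14.5 in ER28. The summed LIM-only level was 0.506 of the summed LDB level in the parental line, 0.837 in ER42, 0.991 in ER5, 1.14 in ER47, 1.27 in ER29 and 2.70 in ER28. LDB1 made up 93.6 to 96.7% of the LDB sum in every line mean. These are transcript levels, and protein was not measured.

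**Figure D3:**
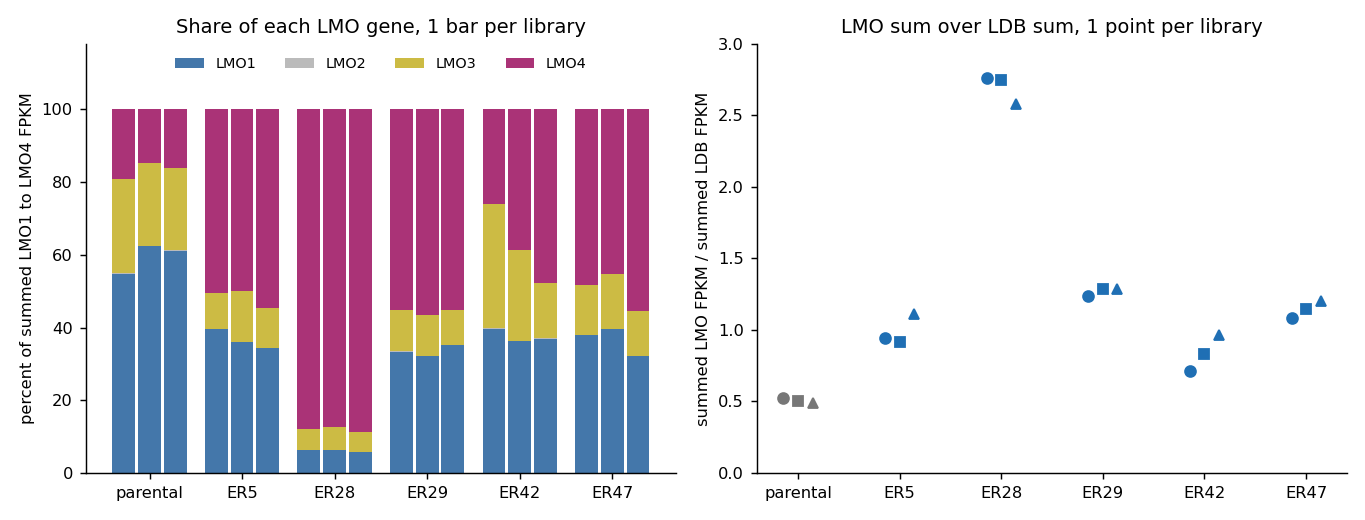
Left, percent of the summed LMO1 to LMO4 FPKM held by each gene, 1 stacked bar per library (LMO2 is too low to see); right, ratio of the summed LMO to the summed LDB FPKM, 1 point per library. LMO4 makes up 88.0% of the sum in ER28, where the ratio averages 2.70 against 0.506 in the parental line.

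The lines from the 2 dosing intervals are given side by side as a description, since each interval is represented by 3 or 2 tumours. Line means of LMO4 were 47.5, 53.2 and 166 FPKM at 4 h and 21.3 and 41.7 at 6 h. By line mean, both 6 h lines lay below all 4 h lines for LMO4 and above them for LMO3. Libraries still overlapped between the intervals. For LMO4 those of ER47 overlapped those of ER5. For LMO3 the libraries of both 6 h lines overlapped those of every 4 h line, and the F test among the resistant lines did not call it. Line means of LMO1 ran from 11.5 to 33.7 at 4 h and from 20.8 to 30.7 at 6 h, and those of LDB2 from 2.92 to 6.00 and from 3.86 to 4.40. LMO3 ran from 10.3 to 10.9 at 4 h and from 11.4 to 13.3 at 6 h, and LDB1 from 67.1 to 87.5 and from 62.5 to 69.1.

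Partners of these cofactors and related genes were taken from 6 lists with 48 genes, of which 47 matched an identifier and 34 passed the filter. All are called partners here for short, though the other small LIM proteins are listed as relatives with LIM domains. Those relatives made up 7 of the 34, with no higher call and 2 to 5 lower calls in each line. All 6 lists were chosen with earlier results of these libraries known. Of the 34, 6 were called higher and 17 lower in ER5, 8 and 15 in ER28, 5 and 19 in ER29, 8 and 14 in ER42, and 7 and 17 in ER47. As a share of all tested genes, the higher and lower calls were 24.5% and 27.5% in ER5, 14.6% and 20.9% in ER28, 23.1% and 27.1% in ER29, 16.9% and 22.8% in ER42, and 18.8% and 28.1% in ER47. The median log2 differences of the 34 partners were -0.26, -0.23, -0.34, -0.25 and -0.27 in the same order of lines. With the same sign in all 5 lines, 4 were called higher and 10 lower, against 5.63% and 12.3% of all tested genes. As for the members, the partner counts are a description and nothing is read from their number. The adjusted p-values printed below for single partners are likewise descriptive, since these genes were named by their own differences.

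Among LIM-homeodomain factors, which share the LDB1 surface with LIM-only proteins, 5 of 12 passed the filter, and 1 rose and 2 fell in all 5 lines. LHX9, a factor of neural and gonadal development, was 5.73 ± 0.630 FPKM in the parental line and 0.0454 to 1.21 in the resistant line means. Its log2 differences were -2.68 to -1.63 (limma, BH-adjusted p from 1.29e-09 to 8.34e-07). LHX8, known for cholinergic neurons and oocytes, was 3.06 ± 0.900 in the parental line, 20.3 ± 2.32 in ER5 and 5.15 to 6.52 in the other lines (0.61 to 2.41, limma, BH-adjusted p from 2.69e-08 to 0.00892). ISL1, a noradrenergic and motor neuron factor, was 172 ± 1.50 in the parental line and fell to between 82.4 in ER28 and 137 in ER47 (-1.05 to -0.32, limma, BH-adjusted p from 3.27e-06 to 0.0257). Under quantile normalisation ISL1 was not called in ER29 (0.01) or ER47 (-0.02), and in ER47 its call also ended with no filter (-0.32), with median-of-ratios scaling (-0.27), and without any 1 parental library or ER47 replicate 1 or 2 (-0.33 to -0.30). LHX4 was called in ER42 alone (0.52 ± 0.16, limma, BH-adjusted p = 0.0167), and not without parental replicate 1 (0.48). LHX2, LHX3, LHX5, LHX6, LMX1A and LMX1B did not pass the filter, and the highest value among them was 1.64 for LHX6.

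All 4 LDB-associated proteins passed the filter. SSBP2, SSBP3 and SSBP4 are single-stranded DNA-binding proteins that bind LDB1 and protect it from degradation. SSBP3 rose in all 5 lines, from 50.5 ± 4.17 FPKM to line means of 59.5 to 71.2 (0.24 to 0.49, limma, BH-adjusted p from 6.82e-06 to 0.00466). SSBP4 fell in all 5, from 52.2 ± 2.75 to 26.8 to 35.9 (-0.94 to -0.54, limma, BH-adjusted p from 7.18e-06 to 0.00173). SSBP2 was 31.0 in the parental line and 30.1 to 32.3 in 4 resistant lines, and it was called in ER42 at 45.1 (0.53, limma, BH-adjusted p = 0.0367). That call ended with no filter (0.53) and without any 1 of the 3 parental or 3 ER42 libraries (0.46 to 0.59). RLIM, the ubiquitin ligase that marks LDB1 for degradation, rose by 0.23 in ER5, 0.17 in ER42 and 0.18 in ER47 (limma, BH-adjusted p = 0.00195, 0.0205 and 0.0101), and its differences in ER28 and ER29 were 0.06 and 0.06. Under quantile normalisation RLIM was also called higher in ER28 (0.18) and ER29 (0.22). Its call in ER42 ended without parental replicate 2 or 3 or ER42 replicate 3 (0.15 to 0.17).

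Of the 9 GATA and bHLH factors that LIM-only proteins bridge to LDB1, 7 passed the filter, and 1 rose and 3 fell in all 5 lines. GATA3, a core noradrenergic factor, stood at 35.1 ± 3.37 FPKM in the parental line and at 162 to 194 in the resistant means (2.18 to 2.43, limma, BH-adjusted p from 1.2e-11 to 7.93e-11). GATA2 went the other way, from 302 ± 1.77 to 145 to 194 (-1.13 to -0.65, limma, BH-adjusted p from 0.000231 to 0.0192). Under quantile normalisation GATA2 was not called in ER29 (-0.36), ER42 (-0.37) or ER47 (-0.23), nor was it in ER42 without ER42 replicate 1 (-0.51) or in ER47 without ER47 replicate 3 (-0.57).
LYL1, a relative of TAL1, fell from 9.86 ± 0.597 to 3.09 to 5.65 (-1.42 to -0.71, limma, BH-adjusted p from 5.17e-08 to 0.000141). TCF3, an E protein and dimer partner of tissue-restricted bHLH factors, fell from 141 ± 2.55 to 97.4 to 121 (-0.53 to -0.22, limma, BH-adjusted p from 6.5e-06 to 0.0127). Under quantile normalisation TCF3 was not called in ER28 (-0.05) or ER29 (-0.13), and without ER28 replicate 2 it was not called in ER28 (-0.15).
TCF4, another E protein, fell from 332 ± 6.38 to 140 to 196 in 4 lines, and its 301 ± 53.3 in ER42 was not called (-0.16, limma, BH-adjusted p = 0.191), except without ER42 replicate 1 (-0.27). Without ER42 replicate 3 the TCF4 difference there was -0.01, and under quantile normalisation 0.10. TCF12 was called higher in ER28 (0.18) and ER42 (0.23) and lower in ER29 (-0.16; limma, BH-adjusted p = 0.0189, 0.00418 and 0.0275). The TCF12 calls ended in ER28 without parental replicate 1 or 2 or ER28 replicate 2 or 3 (0.17 to 0.18), and in ER29 without parental replicate 2 or 3 or ER29 replicate 2 or 3 (-0.17 to -0.14). Quantile normalisation turned TCF12 in ER29 to 0.17 and in ER47 from -0.07 to 0.24, and took it in ER5 from 0.02 to 0.27, all called higher there. TAL1 and GATA1 did not pass the filter and reached at most 0.0320 and 0.0684.

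Of 10 neuronal bHLH and core noradrenergic factors, 8 passed the filter, and 1 rose and 1 fell in all 5 lines. TBX2, a T-box factor of the neuroblastoma core circuit, rose from 43.7 ± 3.69 FPKM to 77.2 to 137 (0.80 to 1.63, limma, BH-adjusted p from 1.33e-06 to 0.00124). NEUROG2, a proneural bHLH factor of sensory lineages, fell from 120 ± 3.79 to 0.00617 to 0.299 in 4 lines and to 6.71 ± 8.10 in ER42 (-6.91 to -4.67, limma, BH-adjusted p from 1.27e-07 to 1.79e-05).
HAND1, a bHLH factor of sympathetic neurons, fell from 98.5 ± 0.467 to 30.2 to 50.6 in 4 lines, and its -0.60 in ER28 was not called (limma, BH-adjusted p = 0.0578), except with a filter at FPKM 5, in a fit of the 2 lines alone, or without ER5 replicate 1 or 3 or ER42 replicate 3 (-0.60). HES1, a Notch target and transcriptional repressor, rose in ER5 (2.74), ER28 (2.03) and ER47 (2.18; limma, BH-adjusted p = 0.00227, 0.0235 and 0.0118). The HES1 call in ER28 ended with no filter (2.03) and without any 1 parental library or ER28 replicate 1 or 2 (1.98 to 2.08), and in ER47 without ER47 replicate 3 (1.71). In ER29 (1.08) it was called without ER42 replicate 3 or in a fit of the 2 lines alone (1.08), and in ER42 (1.56) with a pseudocount of 0.1 (2.21) or without ER42 replicate 1 (2.15) or 2 (2.03). Without ER42 replicate 3 the HES1 difference in ER42 was 0.50 and not called. NHLH1 and NHLH2, the latter the bHLH partner of LMO3, did not pass the filter and reached at most 0.261 and 0.111.

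All 3 LMO4-binding proteins passed the filter. RBBP8 (CtIP), a DNA end resection factor, fell in all 5 lines, from 41.0 ± 2.29 FPKM to 15.2 to 29.1 (-1.37 to -0.48, limma, BH-adjusted p from 4.93e-09 to 0.000388). BRCA1, its partner in DNA repair, fell from 26.4 ± 1.60 to 8.10 to 17.9 in 4 lines, and its 22.2 ± 2.45 in ER42 was not called (-0.24, limma, BH-adjusted p = 0.231). The BRCA1 call in ER28 (-0.54, limma, BH-adjusted p = 0.0147) ended without parental replicate 3 (-0.49). DEAF1, a transcription factor that binds LMO4, fell in ER28 (-0.24) and ER42 (-0.26; limma, BH-adjusted p = 0.0145 and 0.00831), and in ER28 not without parental replicate 2 (-0.22) or ER28 replicate 2 (-0.18). Quantile normalisation ended both DEAF1 calls (-0.11 and -0.10) and called DEAF1 higher in ER29 (0.18).

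The other small LIM proteins, 7 of 10 of which passed the filter, gave no higher call in any line unless the processing or the libraries were changed. Quantile normalisation called FHL1 higher in ER28 (0.18) and ER42 (0.24), and such calls of CRIP1 in ER29 are given below. CSRP2, a cysteine-rich LIM protein of smooth muscle, fell from 79.1 ± 1.73 FPKM to 12.6 to 37.1 (-2.56 to -1.09, limma, BH-adjusted p from 1.34e-09 to 2.32e-05). CRIP2, another cysteine-rich LIM protein, fell from 80.6 ± 1.22 to 10.2 to 30.2 (-2.87 to -1.39, limma, BH-adjusted p from 4.89e-12 to 2.66e-08). In both the lowest mean was in ER5 and the highest in ER42. FHL1, a LIM protein of striated muscle, was called lower in ER5 (-0.22) and ER29 (-0.20; limma, BH-adjusted p = 0.0165 and 0.032). Those FHL1 calls ended in ER5 without parental replicate 3 or ER5 replicate 2 or 3 (-0.20 to -0.18), in ER29 without parental replicate 2 or 3 or ER29 replicate 2 or 3 (-0.20 to -0.12), and in both under quantile normalisation (-0.11 and -0.04). CRIP1 was called in no line, and in ER29 (0.57) it was called without parental replicate 2 (0.77), ER28 replicate 1, or ER47 replicate 2 or 3 (0.57).

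**Figure D4:**
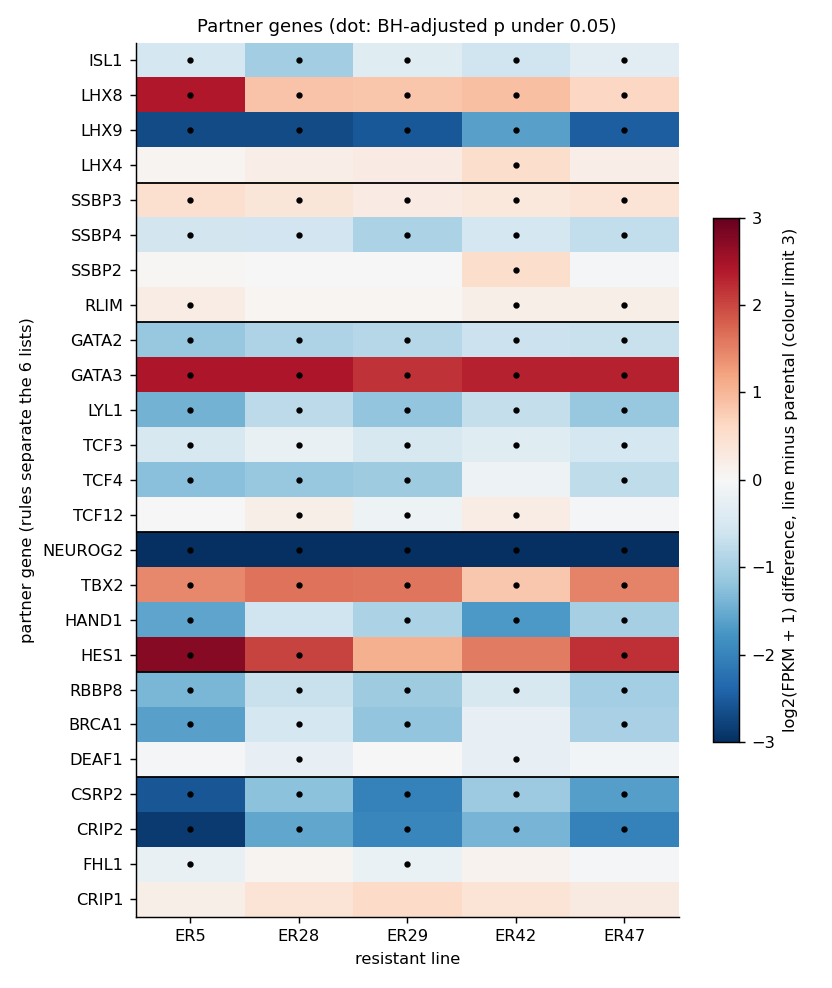
Log2 difference from the parental line, in log2(FPKM + 1), of the named partner genes (rows, with rules between the 6 lists) in each resistant line (columns), as colour, red for higher and blue for lower, which saturates at 3 in either direction. A dot marks a called value; GATA3 is red and dotted in every line, and NEUROG2, at -6.91 to -4.67, is past the blue limit in every line.

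The genes most like each member over the 18 libraries were found by Pearson's r of log2(FPKM + 1) among 12794 protein-coding genes. The libraries share their lines, so that r mostly compares 6 line levels, and it is given as a description. Since the genes were picked on these same libraries, any order of libraries they share with a member follows in part from the pick. For LMO4 they were BAMBI, a decoy receptor of TGF-beta and BMP ligands (r = 0.978), MSX2, a homeodomain factor (r = 0.977), and UNC5B, a netrin receptor (r = 0.975). BAMBI stood at 1.75 ± 0.165 FPKM in the parental line and 36.9 ± 3.01 in ER28, and MSX2 at 0.869 ± 0.185 and 35.5 ± 2.79. UNC5B stood at 41.1 ± 0.895 and 93.7 ± 5.06.
In ER42, BAMBI stood at 3.36, 5.62 and 12.6 in replicates 1, 2 and 3, MSX2 at 2.15, 4.28 and 6.91, and UNC5B at 40.1, 52.7 and 62.4. The ER42 library with the highest LMO4 was also highest for these 3 genes, and the one with the lowest LMO4 was lowest. The ER42 libraries were among those used to pick the genes, so this order is not a separate result.

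**Figure D5:**
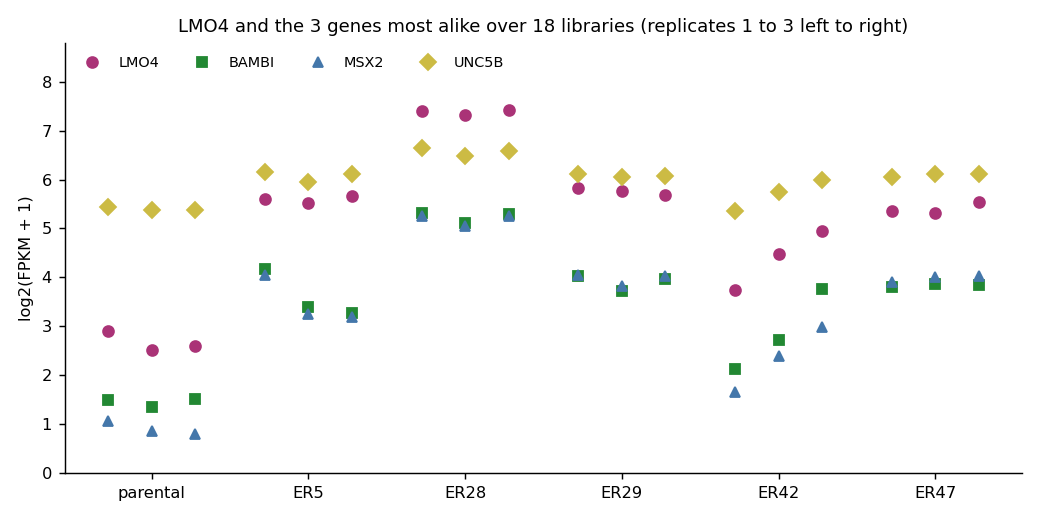
Levels, as log2(FPKM + 1), of LMO4, BAMBI, MSX2 and UNC5B in the 18 libraries, replicates 1 to 3 from left to right within each line. All 4 genes are highest in ER28 and lowest in the parental line or ER42 replicate 1.

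For LMO1 the closest genes were the integrin subunit ITGA4 (r = 0.934), the small heat shock protein HSPB8 (r = 0.921) and PXYLP1, a phosphatase of proteoglycan synthesis (r = 0.914). ITGA4 stood at 4.18 ± 0.0642 FPKM in the parental line, 1.88 ± 0.130 in ER28 and 5.62 to 8.56 in the other lines. For LMO3 they were the neuronal adhesion protein CNTN1 (r = 0.926), the galactosyltransferase B3GALT1 (r = 0.859) and CCDC7 (r = 0.853). CNTN1 stood at 17.2 ± 0.525 in the parental line and at 68.3, 54.0 and 25.8 in ER42 replicates 1, 2 and 3, the order of LMO3 in the same libraries. For LDB1 they were C16orf58 (r = 0.979) and the ribosomal protein genes RPL21 and RPL3 (both r = 0.969), which have near-identical pseudogene copies and uncertain levels for that reason. RPL3 stood at 865 ± 22.2 in the parental line and at 1575, 1565 and 1277 in ER5, lowest in replicate 3 like LDB1. For LDB2 they were the circadian factor TEF (r = 0.932), JRKL (r = 0.923) and JRK (r = 0.881), and TEF stood at 1.27 ± 0.181 in the parental line and 2.90 ± 0.246 in ER5. Among the members themselves r was 0.63 for LDB1 with LDB2, -0.157 for LMO1 with LMO4 and 0.0161 for LMO1 with LMO3.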

How the data were processed

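The authors deposited FPKM values, 1 column per library, for 63657 Ensembl identifiers. Per the submitters' processing notes, STAR 2.5.3, STAR-Fusion, featureCounts and Subread 1.5.0-p1 were run against hg19. Not given in the sources used here were the strand setting and how FPKM were computed and scaled. Per the labels' protocols, ribosomal RNA was removed before library preparation, and HiSeq and NextSeq sequencers were used, with no record of which library ran on which, so no batch could be tested.

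Symbols came from GENCODE v29, which held 52514 of the identifiers (82.5%). FPKM are not counts, so limma 3.58.1 in R 4.3.3 was fitted with an intensity trend to log2(FPKM + 1), with 1 coefficient per line and all 18 libraries, and was tested on simulated data. Genes with FPKM of at least 1 in at least 3 libraries were tested, two-sided, with calls at a BH-adjusted p under 0.05. The members and lists were chosen with earlier results of these data known. Partner genes were named if called with 1 sign in all 5 lines, or if among the 2 highest or 2 lowest mean differences of their list. The 3 protein-coding genes most correlated with each tested member, and the nearest protein-coding gene on each side of each member, were also named. Alternatives were a pseudocount of 0.1, no filter, a filter at FPKM 5, quantile normalisation, median-of-ratios scaling, the replicate number as a block, a fit of the 2 lines compared, and leaving out each library. A gene left out of the partner lists is not reported here. Promoter windows came from RefSeq on GRCh38.p14, and no other coordinates are given, since the values were made on hg19.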

Additional observations from a re-analysis of the deposited data

Results flagged for a closer look

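Of 30 genes examined, 6 had 1 resistant line mean far from the other 4, by Dixon's ratio of the gap to the range, whose 95% critical value for 5 means is 0.71. Chance flags about 1 in 20 such groups where genes are not chosen from the same data. The members were chosen with earlier results of these libraries known, and the partners were named by their differences in them. The count is therefore a description and is not set against that rate. LMO4 in ER28 had a ratio of 0.779, at 166 FPKM with the next line at 53.2. LHX8 in ER5 had a ratio of 0.91. In ER42 the ratio was 0.857 for LHX9, 0.854 for SSBP2, 0.956 for NEUROG2 and 0.786 for TBX2.

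The F test of limma called a difference among the 5 resistant lines for 4 members, for which it is a description because the genes were chosen with such values known. The span between the highest and lowest of the 5 log2 differences was 2.99 for LMO4, 1.47 for LMO1, 0.85 for LDB2 and 0.47 for LDB1. Among the partners it was 0.73 for ISL1, 1.80 for LHX8, 1.06 for LHX9, 0.25 for SSBP3, 0.40 for SSBP4 and 0.16 for RLIM. It was 0.71 for LYL1, 0.31 for TCF3, 1.09 for TCF4, 0.39 for TCF12, 2.24 for NEUROG2, 0.83 for TBX2 and 1.11 for HAND1. It was 0.89 for RBBP8, 1.38 for BRCA1, 0.24 for DEAF1, 1.47 for CSRP2, 1.48 for CRIP2 and 0.32 for FHL1.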

How the results depend on the processing

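Of 625 values of the members under an alternative, 584 (93.4%) kept their direction and side of the threshold, none reversed, and the LMO1 and LMO4 calls held under all alternatives run, with LMO4 in ER42 between 1.44 and 2.05. For partner genes 3011 of 3115 (96.7%) did. The number of members called in ER29 was 3, and 5 in a fit with a replicate block, which added LMO3 and LDB2 (HES1 in ER42 also passed there, at 1.56); without 1 library it ran from 2 to 5, with 5 without ER29 replicate 3. Deviations of same-numbered libraries of different lines had correlations of -0.263 to 0.23 (mean 0.0168), and those of different-numbered ones -0.236 to 0.25 (mean -0.00841). The numbers gave no sign of pairing, though such a check cannot exclude it. Quantile normalisation reversed ISL1 in ER29 (0.015), SSBP2 in ER28 (0.10), ER29 (0.16) and ER47 (0.14), TCF4 in ER42 (0.10), TCF12 in ER29 (0.17) and ER47 (0.24), DEAF1 in ER5 (0.095), ER29 (0.18) and ER47 (0.13), and FHL1 in ER47 (0.14); in ER47 it moved the share of higher calls among all calls from 40.1% to 50.4%. Median-of-ratios scaling reversed SSBP2 (0.0029) and FHL1 (0.0028) in ER47. Leaving out 1 library reversed values near 0, whose cause was not tested. They were LHX4 in ER5 (-0.062 to 0.19), SSBP2 in ER5 (-0.13 to 0.15), ER28 (-0.23 to 0.22), ER29 (-0.14 to 0.10) and ER47 (-0.11 to 0.017), TCF12 in ER5 (-0.025 to 0.048), and DEAF1 in ER29 (-0.045 to 0.025). The number of libraries, 3 a line, and an unknown read depth limit the precision of low genes such as LMO2 and LDB2.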

Other observations

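The nearest protein-coding genes to the members on their chromosomes gave these levels. PKN2, a protein kinase next to LMO4, stood at 18.7 ± 1.39 FPKM in the parental line and 24.5 ± 2.04 in ER28, a ratio of 1.31 where LMO4 had 30.7. The ER42, ER47 and ER29 libraries of PKN2 overlapped the parental ones. RIC3, a chaperone of nicotinic receptors next to LMO1, stood at 12.7 ± 0.279 in the parental line. It stood at 9.26 ± 1.48 in ER5, 8.21 ± 2.36 in ER28 and 17.4 ± 3.01 in ER29. In ER42 it stood at 17.2 ± 1.39 and in ER47 at 15.1 ± 3.10. Of these RIC3 differences the one in ER28 alone was called. In ER5, the line with the highest LMO1 mean, all RIC3 libraries lay below the parental ones. STK33, the kinase gene on the other side of LMO1, stood at 6.82 ± 0.262 in the parental line. It stood at 6.00 ± 1.77 in ER5, 8.09 ± 0.937 in ER28 and 9.24 ± 0.965 in ER29. In ER42 it stood at 4.53 ± 0.707 and in ER47 at 6.55 ± 1.75.

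TAPT1, a gene next to LDB2, stood at 11.2 ± 0.463 FPKM in the parental line and, as LDB2 did, had its highest mean in ER5, at 19.5 ± 1.71. Its means were 18.6 ± 3.99 in ER29, 16.5 ± 3.17 in ER47, 14.4 ± 2.64 in ER42 and 13.1 ± 0.818 in ER28, and no resistant line overlapped the parental libraries. QDPR, the dihydropteridine reductase gene on the other side of LDB2, stood at 28.4 ± 1.36 in the parental line and 17.6 to 27.6 in the resistant means, lowest in ER42. HPS6, a lysosome-related organelle gene next to LDB1, stood at 9.97 ± 0.0582 in the parental line and 7.08 to 9.35 in the resistant means, and ER5 alone overlapped the parental libraries. PPRC1, a coactivator gene on the other side of LDB1, stood at 26.9 ± 0.674 and 20.7 to 25.4. Beside LMO2, FBXO3 stood at 13.9 ± 1.14 in the parental line and 12.6 to 15.5 in the resistant means, and CAPRIN1 at 203 ± 3.77 and 182 to 203. SLC15A5 and RERGL beside LMO3, and AC093155.3 on the other side of LMO4, did not pass the filter.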
